A study of Mus musculus with 12 samples.

Results

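The genes described here are the fatty acid desaturases Fads1, Fads2 and Fads3, the fatty acid elongases Elovl1, Elovl2, Elovl4, Elovl5, Elovl6 and Elovl7, and the reductase Tecr. They are 10 of the 50563 genes in the deposited count table and were taken by symbol, each through its mouse Ensembl identifier. All 10 had enough counts to be tested. RNA was sequenced from the brain cortex of 12 E4FAD mice, with 1 library per mouse, in 7 CTRL and 5 DPAn-6 mice. E4FAD mice (APOE4+/+, 5FAD-/+) carry human APOE4 in place of mouse Apoe and the 5xFAD transgenes of familial Alzheimer's disease on 1 allele, on a C57BL/6 background, so both groups are models of amyloid disease and neither is a healthy control. DPAn-6 mice received the ethyl ester of the omega-6 fatty acid docosapentaenoic acid by daily oral gavage at 700 mg/kg for 3 weeks. CTRL mice were gavaged with the vehicle, which held alpha-tocopherol and palmitoyl ascorbic acid. According to the paper, both groups received these antioxidants. Mice aged 12 months numbered 2 in CTRL and 2 in DPAn-6, and the remaining 5 CTRL and 3 DPAn-6 mice were aged 14 months. Each group held both sexes, and the sex of single mice is not given in the labels.

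Mammals cannot make omega-6 or omega-3 polyunsaturated fatty acids from scratch. They lengthen and desaturate the linoleic and alpha-linolenic acids of the diet, in alternating steps of FADS and ELOVL enzymes in the endoplasmic reticulum, to arachidonic acid, docosapentaenoic acid and docosahexaenoic acid. ELOVL enzymes carry out the first, condensing step of each round of elongation, and TECR the last, reducing one. Other elongases act on saturated and monounsaturated acids, which feed the sphingolipids of myelin and of synapses. In the brain, astrocytes are the cell type best known for making long-chain polyunsaturated acids, and most of the brain's docosahexaenoic acid is taken up from blood. DPAn-6 is itself a late product of the omega-6 branch, so the comparison asks whether feeding an end product came with a difference in the transcripts of the enzymes that make it.

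No member passed the test across all genes. By edgeR's quasi-likelihood test with Benjamini-Hochberg adjustment over the 15688 genes tested, 0 of 10 members had an adjusted p below 0.05, against 243 genes or 1.55% of all tested. By DESeq2 and by limma-voom the count of members was also 0. At an unadjusted p below 0.05 there were 2 members, Fads2 with a lower level and Elovl7 with a higher level in DPAn-6 mice, where 14.5% of all genes passed the same threshold. The other 8 had adjusted p-values of 0.643 or more. The median log2 fold change of the 10 members was 0.03, with 6 higher and 4 lower in DPAn-6, beside −0.0047 over all tested genes, of which 48.7% were higher. In no member were the groups of mice free of overlap, a pattern that 3.22% of all genes showed.

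The promoters of Fads2 and Elovl7 are shown because these are the members whose groups were farthest apart. Each window is from RefSeq (GRCm38.p6) and runs from 250 bases before the transcription start to 50 bases after it, on the coding strand. Capitals mark GC boxes (GGGCGG, or CCGCCC on the opposite strand), the sequence bound by factors of the Sp family. The Fads2 window lies at chr19:10101454-10101753 on the minus strand and holds 1 GC box. The Elovl7 window lies at chr13:108214154-108214453 on the plus strand and holds 3.
Fads2: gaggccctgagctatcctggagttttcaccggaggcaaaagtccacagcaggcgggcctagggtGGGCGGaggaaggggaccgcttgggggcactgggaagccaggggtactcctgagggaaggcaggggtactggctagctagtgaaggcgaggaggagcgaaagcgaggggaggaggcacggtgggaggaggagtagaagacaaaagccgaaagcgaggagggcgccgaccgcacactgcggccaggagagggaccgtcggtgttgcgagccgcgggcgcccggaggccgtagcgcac
Elovl7: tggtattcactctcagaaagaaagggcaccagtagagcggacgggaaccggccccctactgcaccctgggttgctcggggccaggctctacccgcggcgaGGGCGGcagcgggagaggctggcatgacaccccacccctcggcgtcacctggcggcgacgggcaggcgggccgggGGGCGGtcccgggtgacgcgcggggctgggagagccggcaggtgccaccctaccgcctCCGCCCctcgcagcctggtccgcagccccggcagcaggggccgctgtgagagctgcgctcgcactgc
RefSeq windows were found for 9 of the 10 members, not for Fads1, and made 11 windows in all. A GC box was present in 8 of the 11, which belong to 7 members, beside 35.7% of all 32851 promoter windows of the same length. The member windows were also richer in G and C, at 55.7% to 84.7% beside a median of 52.7% over all windows. Whether GC boxes exceeded what this base content gives was not tested. A CCAAT box (CCAAT, either strand) was present in 5 windows beside 37.4% of all. The E-box CACGTG was present in the windows of Elovl5 and Elovl4 beside 7.15% of all, and TCACNCCAC, a form of the sterol regulatory element, in 0 windows beside 1.24% of all. In 1 of the Elovl1 windows a CCAAT box and a GC box overlap, and in Elovl4 neighbouring GC boxes share a base. These counts describe letters in a window and say nothing of the factors that bind there.

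Total counts on genes ranged from 15339098 to 19500154 in CTRL and from 15208803 to 26520251 in DPAn-6, and gave p = 0.222 between groups in an exact two-sided permutation test. Members had between 209 and 8989 counts per mouse, and their within-group SD of 0.09 to 0.20 log2 CPM lay under the median of 0.22 over all tested genes. CTRL replicate 3 stood apart, since the number of genes with an adjusted p below 0.05 by edgeR was 953 without it. Values without it are given below where they bear on a member. The tissue was checked against marker genes, and those of excitatory neurons summed to 8782 to 10831 CPM (counts scaled to a common library total) in CTRL and 9044 to 9563 CPM in DPAn-6. Some libraries also held choroid plexus transcripts, with a summed level of 13.5 to 1676 CPM in CTRL and 7.90 to 24.1 CPM in DPAn-6 over 7 markers. In bulk tissue, fewer cells of a type and less RNA per cell cannot be told apart.

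Fads2 (ENSMUSG00000024665, GRCm38 chromosome 19, 10062765 to 10101746, minus strand) encodes the desaturase that opens the polyunsaturated pathway and acts again near its end, in the formation of DPAn-6. Its level in CTRL mice ran from 112.6 to 160.2 CPM with a median of 130.6. In DPAn-6 replicates 1 to 5 it was 113.4, 104.9, 95.2, 106.0 and 124.8 CPM. All 5 DPAn-6 mice lay below the CTRL mean and 3 lay below every CTRL mouse, while 5 of the 7 CTRL mice lay above every DPAn-6 mouse. On the log2 CPM scale the means were 7.05 ± 0.18 (SD, n = 7) and 6.76 ± 0.14 (SD, n = 5). The log2 fold change was −0.32 (SE 0.10, 95% interval −0.52 to −0.11), a difference of −19.7% with an interval from −30.4% to −7.29%. It had an unadjusted p of 0.00535 and an adjusted p of 0.127 by edgeR, and a two-sided exact permutation test of log2 CPM gave p = 0.0164, where the smallest p possible with 7 and 5 mice is 0.00126. Without CTRL replicate 3, the mouse with the highest Fads2 level, edgeR gave −0.26 on the log2 scale (adjusted p = 0.0553).

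The size of the Fads2 difference depended on 1 covariate. With the log2 level of Ttr, the transthyretin gene that marks choroid plexus, as a covariate, it was −0.17 with an unadjusted p of 0.177 by edgeR. The SE of the Fads2 difference was 0.12 with this covariate, beside 0.10 without it. Over all genes, 17 had an adjusted p below 0.05 by edgeR with it, beside 243 without it. Elovl7 had a log2 fold change of 0.30 with it, beside 0.27 without it. Ttr was lower in DPAn-6 mice, so this fit cannot fully tell its part from that of treatment. Ttr itself ran from 2.59 to 10.58 log2 CPM in CTRL and from 0.87 to 3.88 in DPAn-6. All 5 choroid plexus markers tested were lower in DPAn-6, where the median difference on the log2 scale was −2.71. By edgeR all 5 had an unadjusted p below 0.05 and 0 passed the adjusted test. The choroid plexus markers Folr1 and Otx2 had too few counts to be tested. Astrocyte markers had a summed level of 7630 to 11557 CPM in CTRL and 6886 to 8466 CPM in DPAn-6. Of 12 astrocyte markers, 10 were lower and 2 higher in DPAn-6, 0 passed the adjusted test and 4 had an unadjusted p below 0.05, and the list median was −0.15. None of the 12 was at 0 in any mouse. Across the 12 mice with group means removed, Fads2 and the mean of the astrocyte markers gave Pearson's r = 0.59 (permutation p = 0.0578) and Spearman's rho = 0.62 (permutation p = 0.0470), with adjusted p of 0.339 and 0.497 over 90 pairs of a member and a marker list, and r = 0.65 after leaving out CTRL replicate 3 and DPAn-6 replicate 5, which lay farthest from the median Fads2 level once group means were removed. Inhibitory neuron markers, which were higher in DPAn-6 in 7 of 7, ran opposite to Fads2 within groups (r = −0.66, permutation p = 0.0304, and rho = −0.59, permutation p = 0.0576). Their adjusted p-values were 0.304 and 0.497, and r was −0.43 without the same pair of mice. Choroid plexus markers and Fads2 gave r = 0.48 (permutation p = 0.17) and rho = 0.47 (permutation p = 0.162) within groups. The adjusted p-values of this pair were 0.45 and 0.497, and r was 0.50 without the same mice. The part of these cell types in the Fads2 difference was not tested.

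Fads1 (ENSMUSG00000010663, chromosome 19, 10182888 to 10196877, plus strand) encodes the desaturase that forms arachidonic acid. CTRL mice averaged 8.15 ± 0.16 log2 CPM (SD, n = 7), against 8.10 ± 0.08 (SD, n = 5) under DPAn-6. They ran from 8.03 to 8.44 with a median of 8.08, and DPAn-6 mice lay at 8.14, 8.05, 7.99, 8.08 and 8.21. The groups overlapped over most of their range, with 1 DPAn-6 mouse above the CTRL mean. The log2 fold change of −0.09 (95% interval −0.26 to 0.08) had an unadjusted p of 0.277 by edgeR, so a difference of the size of that in Fads2 was outside the interval. Fads3 (ENSMUSG00000024664, chromosome 19, 10041569 to 10060110, plus strand), whose product is best known for acting on sphingoid bases, had 4.98 ± 0.22 log2 CPM (SD, n = 7) and 4.97 ± 0.10 (SD, n = 5). Its CTRL mice ran from 4.50, in replicate 3, to 5.15, and its DPAn-6 mice from 4.88 to 5.11. The log2 fold change was −0.04 (95% interval −0.24 to 0.17) with an unadjusted p of 0.717 by edgeR.

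The 3 desaturases lie within 155309 bases of chromosome 19. Fads3 and Fads2 are close neighbours and 81141 bases separate Fads2 from Fads1. Fads2 and Fads1 correlated across mice within groups at r = 0.52 (permutation p = 0.113) and rho = 0.62 (permutation p = 0.0474), with adjusted p of 0.425 and 0.267 over 45 pairs of members. Leaving out the same pair of mice as above gave r = 0.90. Of 6 other genes tested within 50000 bases of the cluster, 1 had an unadjusted p below 0.05. This was Rab3il1, a Rab exchange factor gene next to Fads3, with a log2 fold change of −0.33 (SE 0.12, adjusted p = 0.208 by edgeR). Myrf, the myelin regulatory factor, had 0.17 (SE 0.10, adjusted p = 0.458 by edgeR).

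Elovl5, Elovl2 and Elovl4 encode the elongases of polyunsaturated acids. Elovl5 (ENSMUSG00000032349, chromosome 9, 77917364 to 77984519, plus strand), which lengthens the intermediates on the way to arachidonic acid, averaged 6.13 ± 0.23 log2 CPM (SD, n = 7) under vehicle, against 6.27 ± 0.12 (SD, n = 5) under DPAn-6. CTRL mice ran from 5.81 to 6.47 and enclosed all 5 DPAn-6 mice, which ran from 6.09 to 6.41. Its log2 fold change of 0.10 (95% interval −0.14 to 0.34) had an unadjusted p of 0.377 by edgeR. Elovl2 (ENSMUSG00000021364, chromosome 13, 41182381 to 41220405, minus strand), which works further along the pathway, had 3.92 ± 0.21 log2 CPM (SD, n = 7) and 3.90 ± 0.15 (SD, n = 5), with a log2 fold change of −0.06 (95% interval −0.30 to 0.19). Its CTRL mice again enclosed all DPAn-6 mice, which ran from 3.74 to 4.10. Elovl4 (ENSMUSG00000032262, chromosome 9, 83778692 to 83806277, minus strand), which makes very long chains in neurons and photoreceptors, had 5.45 ± 0.23 log2 CPM (SD, n = 7) and 5.54 ± 0.12 (SD, n = 5). The spread in CTRL, from 5.05 in replicate 2 to 5.73 in replicate 3, covered all 5 DPAn-6 mice, and the log2 fold change was 0.06 (95% interval −0.18 to 0.29).

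Elovl7 (ENSMUSG00000021696, chromosome 13, 108214404 to 108285683, plus strand), an elongase of saturated and monounsaturated long chains, was the member with the higher level in DPAn-6 mice. It had 16.4 to 19.4 CPM in CTRL mice with a median of 17.9. In DPAn-6 replicates 1 to 5 it had 19.4, 26.3, 20.7, 23.0 and 20.6 CPM. All 5 lay above the CTRL mean and 4 lay above every CTRL mouse, with replicate 2 the highest and replicate 1 just under the highest CTRL mouse. The means were 4.17 ± 0.08 log2 CPM (SD, n = 7) and 4.45 ± 0.17 (SD, n = 5). The log2 fold change was 0.27 (SE 0.09, 95% interval 0.08 to 0.45), a level 20.4% higher, with an interval from 5.96% to 36.7% higher. It had an unadjusted p of 0.00732 and an adjusted p of 0.148 by edgeR, and an exact permutation p of 0.00253. Without CTRL replicate 3 edgeR gave 0.27 (adjusted p = 0.0602), and with Ttr as covariate 0.30.

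Oligodendrocyte markers were also higher in DPAn-6 mice. Their summed level was 5384 to 7129 CPM in CTRL and 6335 to 7187 CPM in DPAn-6. Of 12 markers, 10 were higher and 2 lower, 0 passed the adjusted test and 6 had an unadjusted p below 0.05, and the list median was 0.21 on the log2 scale. None of them was at 0 in any mouse. Within groups, Elovl7 and the mean of these markers gave r = −0.28 (permutation p = 0.265) and rho = −0.18 (permutation p = 0.557), with adjusted p of 0.568 and 0.847, and r = −0.64 without DPAn-6 replicates 1 and 2. Inhibitory neuron markers were higher in 7 of 7 (list median 0.21), and their correlation with Elovl7 was r = −0.18 (permutation p = 0.586) and rho = −0.15 (permutation p = 0.665), or r = −0.09 without the same 2 mice. The part of either cell type in the Elovl7 difference was not tested.

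Elovl6 (ENSMUSG00000041220, chromosome 3, 129532355 to 129638495, plus strand), which lengthens palmitate to stearate, averaged 5.72 ± 0.17 log2 CPM (SD, n = 7) under vehicle, against 5.86 ± 0.08 (SD, n = 5) under DPAn-6. CTRL mice ran from 5.52 to 6.03 with a median of 5.71, and DPAn-6 mice lay at 5.86, 5.91, 5.91, 5.88 and 5.73. All 5 DPAn-6 mice lay above the CTRL mean, and 4 of the 7 CTRL mice lay below every DPAn-6 mouse. The log2 fold change was 0.11 (95% interval −0.08 to 0.30) with an unadjusted p of 0.238 by edgeR and an exact permutation p of 0.115. CTRL replicate 3 had the highest level, and without it the log2 fold change was 0.17 (SE 0.06) with an unadjusted p of 0.00860 and an adjusted p of 0.0876 by edgeR. With all 12 mice kept and the trends of each library with GC content and transcript length removed, edgeR gave 0.17 (unadjusted p = 0.00327, adjusted p = 0.0702). The call of Elovl6 at the unadjusted threshold therefore depended on 1 mouse and also on the processing.

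Elovl1 (ENSMUSG00000006390, chromosome 4, 118428093 to 118432953, plus strand), which makes the saturated very long chains of sphingolipids, had the smallest pooled within-group SD of the members (0.09 log2 CPM), though not the smallest SD in either group alone. It had 4.14 ± 0.09 log2 CPM (SD, n = 7) and 4.18 ± 0.10 (SD, n = 5), with a log2 fold change of 0.02 (95% interval −0.14 to 0.18). Tecr (ENSMUSG00000031708, chromosome 8, 83571698 to 83607971, minus strand), shared by all elongases as the last enzyme of the cycle, had 8.30 ± 0.08 log2 CPM (SD, n = 7) and 8.37 ± 0.14 (SD, n = 5). Of its DPAn-6 mice, 2 lay above and 1 below every CTRL mouse, and the log2 fold change was 0.04 (95% interval −0.11 to 0.19). Elovl1 overlaps the opposite-strand gene Cdc20, which had 196 counts in all beside 3944 of Elovl1, and Tecr overlaps an antisense gene with 7 counts in all beside 70976.

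**Figure D1:**
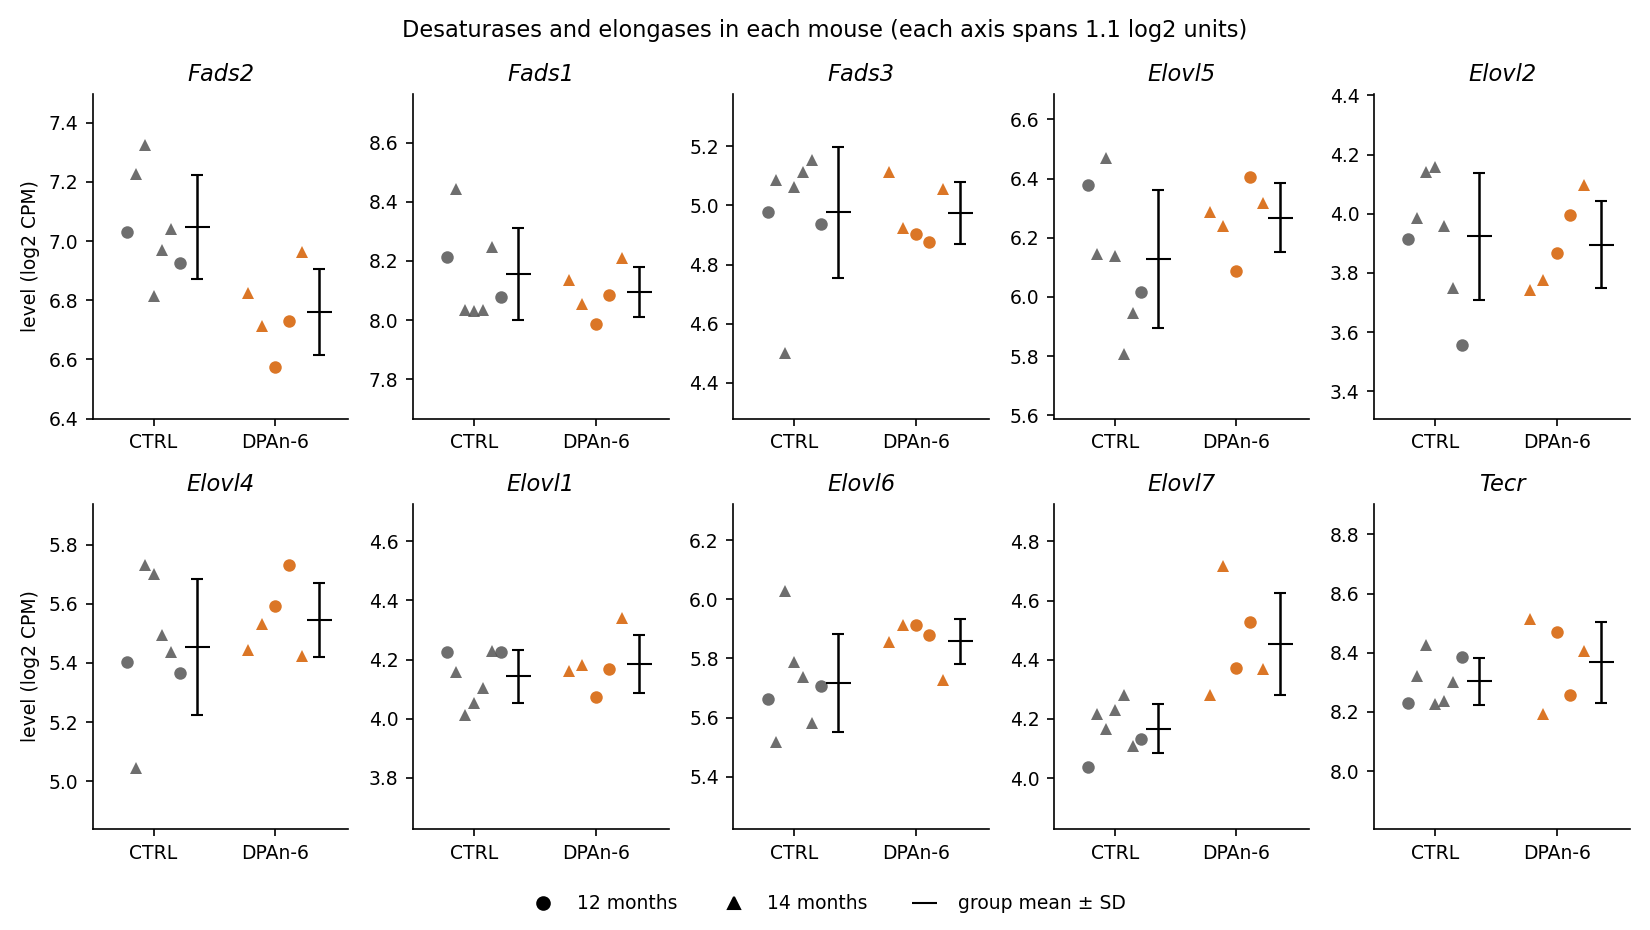
The level of each member (log2 CPM, vertical axis) is plotted for each CTRL and DPAn-6 mouse, with circles for mice of 12 months, triangles for mice of 14 months, and bars for the group mean ± SD (n = 7 and 5). For Fads2, 3 DPAn-6 mice lie below every CTRL mouse, for Elovl7, 4 lie above every CTRL mouse, and the lowest Fads3 point is CTRL replicate 3.

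**Figure D2:**
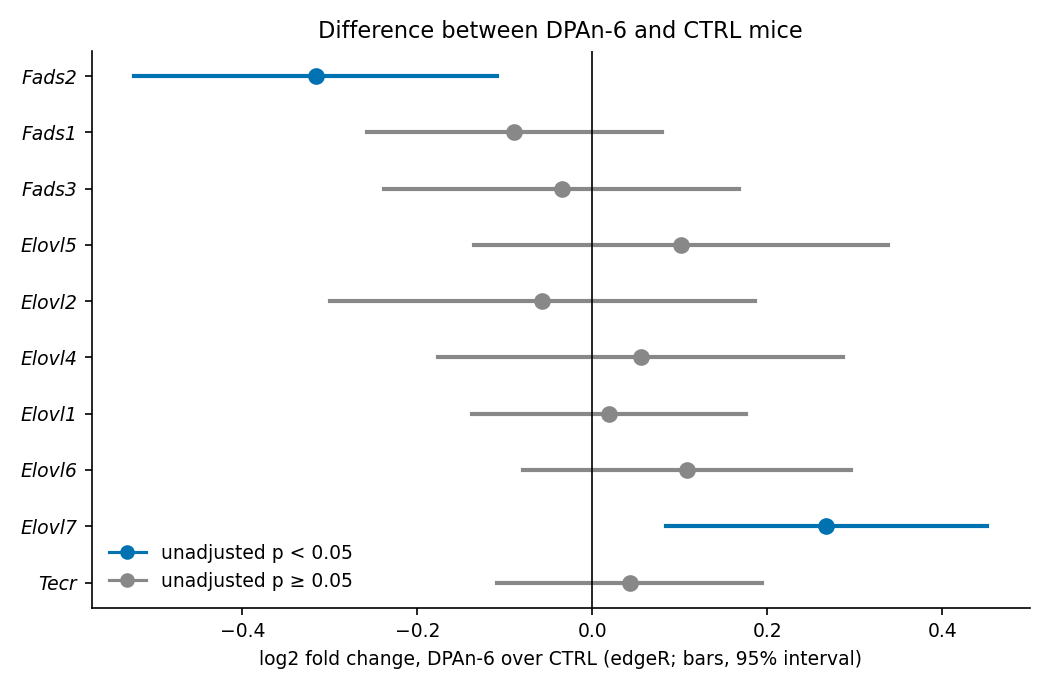
Each point is the log2 fold change of DPAn-6 over CTRL (horizontal axis) from edgeR for 1 member, with its 95% interval. The intervals of Fads2 (−0.52 to −0.11) and Elovl7 (0.08 to 0.45) do not reach 0, and the other 8 do.

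Age was compared within the same libraries, with treatment as a covariate. For 14 against 12 months, 0 of 10 members passed at the adjusted or the unadjusted threshold by edgeR or limma-voom, where 0% of all genes passed the first and 1.78% the second in edgeR. Log2 fold changes for age ran from −0.03 in Elovl5 to 0.15 in Fads2, the latter with a 95% interval of −0.07 to 0.36 and an unadjusted p of 0.162 by edgeR. Without CTRL replicate 3, Fads3 passed the unadjusted threshold for age in edgeR, with a log2 fold change of 0.14 and an adjusted p of 1.00.

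The treatment difference did not pass a test of its own difference between the ages in any member. The interaction of treatment and age had 0 members at either threshold by edgeR and limma-voom, beside 0.00637% of all genes at the adjusted and 4.26% at the unadjusted threshold in edgeR. The smallest unadjusted p by edgeR was 0.162, for Elovl4, with an interaction of −0.34 on the log2 scale (95% interval −0.84 to 0.16). The Elovl4 means were 5.38 in CTRL and 5.66 in DPAn-6 at 12 months, and 5.48 and 5.47 at 14 months. Without CTRL replicate 2 its unadjusted p was 0.0234 by edgeR. For Fads2 the DPAn-6 mean was lower by 0.33 log2 CPM at 12 months and by 0.24 at 14 months, and for Elovl7 it was higher by 0.36 and 0.25. With 2 mice per group at 12 months the interactions were imprecise, with a 95% interval of −0.40 to 0.49 in Fads2. In the 14-month mice alone, with 5 CTRL and 3 DPAn-6 mice, Fads2 had −0.27 (unadjusted p = 0.0656) and Elovl7 0.24 (unadjusted p = 0.0755) by edgeR.

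To compare levels between genes, counts were also scaled to exon length as log2 RPKM, which is log2 CPM per kilobase of exon. Tecr was highest at 7.20 ± 0.11 log2 RPKM (SD, n = 12), followed by Fads1 at 5.86 ± 0.13 and Fads2 at 5.21 ± 0.22. The polyunsaturated elongases Elovl5, at 4.37 ± 0.20 log2 RPKM, and Elovl4, at 3.89 ± 0.19 log2 RPKM, came next. Elovl6 (3.09 ± 0.15 log2 RPKM), Fads3 (3.05 ± 0.18 log2 RPKM), Elovl1 (2.71 ± 0.09 log2 RPKM), Elovl7 (2.28 ± 0.19 log2 RPKM) and Elovl2 (1.92 ± 0.18 log2 RPKM) were lower. The level of Elovl2 was thus below that of the other polyunsaturated elongases. Within each of the 12 mice every neighbour in this order kept its place, except Elovl6 and Fads3, of which Elovl6 was higher in 5 of 12. Their log2 RPKM differed by 0.04 ± 0.30 (SD, n = 12), and their order was the opposite in CTRL and DPAn-6 means. The ranges over mice also overlapped between Elovl5 and Elovl4, Fads3 and Elovl1, Elovl1 and Elovl7, and Elovl7 and Elovl2.

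**Figure D3:**
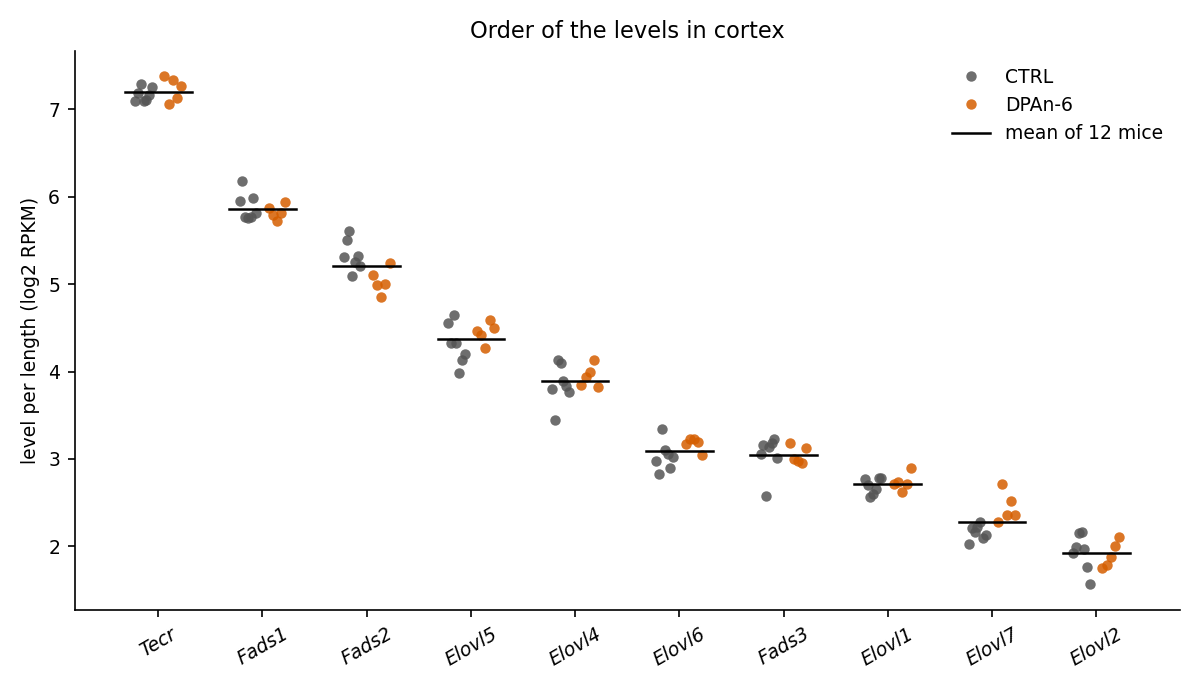
Levels per exon length (log2 RPKM, vertical axis) are plotted for each member in CTRL and DPAn-6 mice, with a line at the mean of 12 mice. Levels fall from Tecr (7.20) to Elovl2 (1.92), and Elovl6 (3.09) and Fads3 (3.05) are not separated.

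Members were compared with each other across the 12 mice, with the mean of each group removed. By Pearson's r, 0 of 45 pairs had an adjusted p below 0.05 and 7 had an unadjusted permutation p below 0.05. By Spearman's rho, 4 pairs passed the adjustment, and these are named because of that result. Elovl4 and Elovl6 varied together (r = 0.81, permutation p = 0.00859, adjusted p = 0.097, and rho = 0.85, permutation p = 0.00084, adjusted p = 0.0378). Fads1 ran opposite to Elovl4 (r = −0.82, permutation p = 0.00396, adjusted p = 0.0891, and rho = −0.79, permutation p = 0.00358, adjusted p = 0.0403). It also ran opposite to Elovl6 (r = −0.80, permutation p = 0.00862, adjusted p = 0.097, and rho = −0.84, permutation p = 0.00247, adjusted p = 0.0403). Elovl1 ran opposite to Elovl6 (r = −0.75, permutation p = 0.00353, adjusted p = 0.0891, and rho = −0.81, permutation p = 0.00304, adjusted p = 0.0403). For each pair the 2 mice were then left out whose group-centred level of the gene named first lay farthest from its median, and r was 0.59, −0.55, −0.69 and −0.61 in the same order. With CTRL replicate 2 left out, r of Fads1 and Elovl4 was −0.61. No batch is given in the labels, and the cause of this shared variation was not tested.

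**Figure D4:**
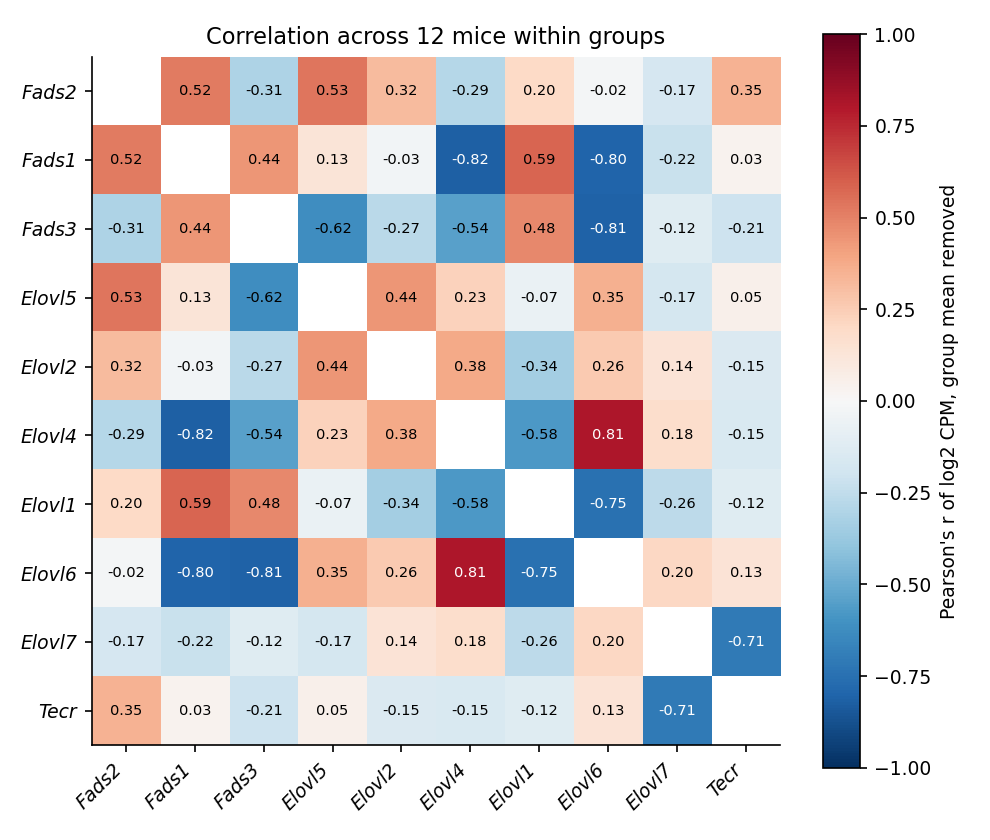
Each cell gives Pearson's r of log2 CPM between 2 members across 12 mice after the group means were removed, from −1 in blue to 1 in red. Elovl6 is positive with Elovl4 (0.81) and negative with Fads1 (−0.80), Fads3 (−0.81) and Elovl1 (−0.75). The pair with Fads3 passed the adjustment by neither r nor rho (adjusted permutation p = 0.141 and 0.267). Its r was −0.47 without CTRL replicate 3 and DPAn-6 replicate 4.

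Beside the 9 marker lists, 0 of 90 pairs of a member and a list passed the adjustment and 9 had an unadjusted p below 0.05. The largest r was of Elovl6 with excitatory neuron markers, at 0.82 (permutation p = 0.0114, adjusted p = 0.288), with rho = 0.45 (permutation p = 0.162, adjusted p = 0.497). It rested on CTRL replicates 2 and 3, since r was 0.29 without them. The smallest permutation p of r was that of Elovl5 with inhibitory neuron markers (r = −0.80, permutation p = 0.00315, adjusted p = 0.283). Their rho was −0.63 (permutation p = 0.0369, adjusted p = 0.497), and r was −0.66 without CTRL replicates 3 and 5. Among 14449 genes with a mean of at least 1 CPM, those most alike to Fads2 within groups were Ctxn1 (r = 0.97), Lrrc75b (r = 0.95) and Mtss1l (r = 0.92). For Elovl7 they were E130317F20Rik (r = 0.90), Mdn1 (r = 0.89) and Smg1 (r = 0.88), and for Elovl6 Serinc3 (r = 0.98), Ap1g1 (r = 0.97) and Rnf115 (r = 0.97). These are the highest of many values over 12 mice and are given as a description.

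Related genes were taken in 7 lists of 61 genes, of which 55 were tested. By edgeR 1 of the 55 had an adjusted p below 0.05, and 10, or 18.2%, had an unadjusted p below 0.05, beside 14.5% of all genes. Of these 10, 7 were higher and 3 lower in DPAn-6. The gene that passed was Fabp7, which encodes the brain fatty acid binding protein of radial glia and astrocytes with high affinity for docosahexaenoic acid. CTRL mice averaged 3.26 ± 0.21 log2 CPM (SD, n = 7), from 3.03 to 3.62, against 4.10 ± 0.21 (SD, n = 5), from 3.84 to 4.36, under DPAn-6, so the groups did not overlap. Fabp7 rose by a log2 fold change of 0.82 (SE 0.12) with an adjusted p of 0.00429 by edgeR. The other 8 genes of its list, which bind, transport or activate polyunsaturated acids or place them into phospholipids, ran from −0.25 (Mfsd2a) to 0.17 (Fabp5), with a list median of 0.01.

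The other enzymes of the elongation cycle made a list of 7, of which 5 were tested, with a median log2 fold change of 0.20. Hsd17b12, the second enzyme of the cycle, had 0.23 (SE 0.08, unadjusted p = 0.0110, adjusted p = 0.177 by edgeR) and 5 of 5 DPAn-6 mice exceeded the CTRL mean. Hacd3, a dehydratase of the third step, had 0.20 (SE 0.06, unadjusted p = 0.00857, adjusted p = 0.159 by edgeR), also with all 5 above the CTRL mean. Hacd4, another dehydratase, had −0.55 (SE 0.24, unadjusted p = 0.0350, adjusted p = 0.299 by edgeR). Elovl3, the remaining elongase, had 1 count over all 12 mice and was not tested, nor was Tecrl.

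Among 7 other desaturases tested, Scd3 had a log2 fold change of 0.38 (SE 0.15, adjusted p = 0.236 by edgeR) at 59 to 131 counts per mouse. Scd3 is close in sequence to Scd1 and Scd2, and how reads shared between them were counted was not tested. The list median was −0.02, and Scd2, the main stearoyl desaturase of brain, had −0.03 (SE 0.06). Among 5 electron donors tested, Cyb5r1, a cytochrome reductase, had 0.28 (SE 0.10, adjusted p = 0.193 by edgeR), with a list median of 0.06. In the peroxisomal chain-shortening list, which holds the step that trims the precursor of DPAn-6, 0 of 9 genes had an unadjusted p below 0.05 by edgeR, with a median of 0.0056.

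Among 8 users of very long chains tested, Ugt8a, which makes the galactosylceramide of myelin, had 0.42 (SE 0.13, unadjusted p = 0.00549, adjusted p = 0.129 by edgeR), with a list median of 0.06. Among 12 regulators, Insig2, which retains the sterol-regulated factors in the endoplasmic reticulum, had 0.28 (SE 0.08, unadjusted p = 0.00286, adjusted p = 0.0954 by edgeR). Ppara, a nuclear receptor that responds to fatty acids, had −0.43 (SE 0.14, unadjusted p = 0.00737, adjusted p = 0.149 by edgeR), at 47 to 84 counts per mouse. Mlxipl, a carbohydrate-responsive factor, had −0.30 (SE 0.12, adjusted p = 0.266 by edgeR). Srebf1, the factor best known for driving desaturase genes, had −0.09 (SE 0.16, 95% interval −0.44 to 0.25) and did not differ beyond the spread between mice. The list median was −0.01.

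**Figure D5:**
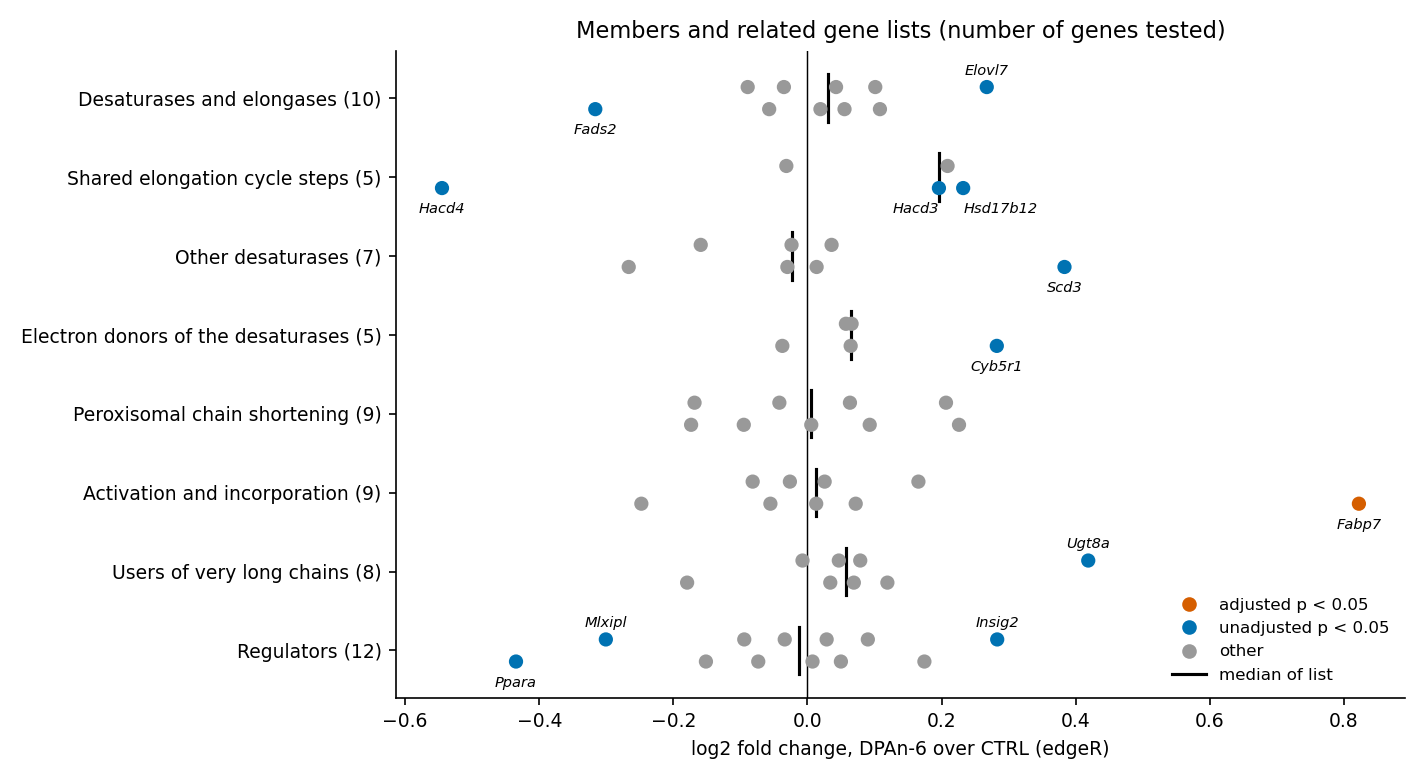
Log2 fold changes of DPAn-6 over CTRL (horizontal axis, edgeR) are plotted for the 10 members and for each list, with a line at the list median and colours for the adjusted and unadjusted thresholds. Fabp7 (0.82) is the only point past the adjusted threshold, and Fads2 (−0.32) and Elovl7 (0.27) stand at the edges of the members' row.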

How the data were processed

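Poly(A)-selected KAPA mRNA libraries of 12 cortices were sequenced, and the authors aligned the reads with STAR 2.5.3a to GRCm38 and counted them per Ensembl gene. They deposited 1 table of raw counts with no normalization. The strand used for counting is not given in the sources used here. The counts of genes that overlap on opposite strands could therefore be affected, which was not tested. Symbols, positions and exon lengths came from GENCODE M21 (GRCm38), in which 50339 of 50563 identifiers matched. The main test on the counts as deposited was the quasi-likelihood F test of edgeR 4.0.16 (glmQLFit, glmQLFTest) under R 4.3.3, after TMM scaling and filterByExpr by group, with Benjamini-Hochberg adjustment over all 15688 genes tested. SE is the fold change over the root of F. Age was tested with treatment as covariate, and the interaction in a fit with both. log2 CPM used a pseudocount of 0.5 and the total gene count. Permutation tests were two-sided, exact for groups and with 100000 resamples for correlations of group-centred values (Python 3.11.15, numpy 2.4.6, scipy 1.17.1, pandas 2.3.3). Each mouse is 1 library, so p-values measure the spread between mice. Scripts were tested on simulated data.

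The members and lists were chosen with earlier results of these data known. The genes named are all members, up to 4 genes per list with an unadjusted p below 0.05 or else the one with the highest count, the 3 genes most alike to each of the 3 members with the smallest p, and neighbours, Scd2, Srebf1, Mfsd2a, Fabp5 and Ttr, which were named after their values were seen. One gene that this rule names is not reported here. The 9 marker lists cover oligodendrocytes and their precursors, astrocytes, excitatory and inhibitory neurons, microglia, endothelium, choroid plexus and meningeal fibroblasts. Alternatives were DESeq2 1.42.0, limma-voom (limma 3.58.1), totals without TMM, 2 other filters, age, Xist or Ttr as covariate, 14-month mice only, a replicate block and each mouse left out. Removal of length and GC trends, the 10 mice numbered alike without the block, and CTRL replicate 3 left out with age as covariate were added after seeing the data.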

Additional observations from a re-analysis of the deposited data

Results flagged for a closer look

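Fads3 in CTRL replicate 3, at 4.50 log2 CPM, lay far below the other 6 CTRL mice, of which the next was at 4.94. The gap was 0.66 of the whole range of the group. Of 20 sets of mice tested in this way (10 members in each group), this was the 1 that passed, and chance passes about 1 in 20. Without this mouse the log2 fold change of Fads3 was −0.10 with an unadjusted p of 0.144 by edgeR.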

How the results depend on the processing

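In 25 alternatives 0 members had an adjusted p below 0.05 for treatment. The lowest was 0.0519 for Fads2 by DESeq2. Members with an unadjusted p below 0.05 numbered 1 with Ttr as covariate (Elovl7) and 0 in 14-month mice, beside 2 in the reported fit. They numbered 3, with Elovl6 added, without CTRL replicate 3, without it and with age as covariate, and with length and GC trends removed. The share of all genes at the unadjusted threshold was not computed for these settings, so whether the members followed it was not tested. Genes with an adjusted p below 0.05 numbered 243 in the reported fit, 696 by DESeq2, 17 with Ttr as covariate, 9 in 14-month mice, 523 with length and GC trends removed, 874 without CTRL replicate 3 and with age as covariate, and 64 (without DPAn-6 replicate 3) to 953 (without CTRL replicate 3) with each mouse left out. With the replicate number as a block it was 69, and 148 in the same 10 mice without the block. The numbers pair no mice in the labels, same-numbered mice correlated at −0.12 to 0.22, and 0 of 5 DPAn-6 mice correlated best with their own number. With the block, Fads2 had −0.34 (unadjusted p = 0.02) and Elovl7 0.24 (unadjusted p = 0.0430) by edgeR. Near-zero members changed sign, Fads3 in 14-month mice (0.0099) and with the block (0.0012), Elovl2 with Ttr (0.10), Elovl4 with Ttr (−0.030) and in 14-month mice (−0.059), Elovl1 with Ttr (−0.0021), and Tecr with length and GC trends removed (−0.015). With each mouse left out, Elovl4 ran from −0.0039 to 0.11 and Elovl1 from −0.014 to 0.050, Fads2 from −0.36 to −0.26 and Elovl7 from 0.20 to 0.32. Members at the unadjusted threshold numbered 0 to 1 for age and 0 to 1 for the interaction, and genes at the adjusted threshold 0 to 13 for the interaction. By Pearson's r, correlated pairs passing the adjustment numbered 3 of 45 and 2 of 90 when pooled over groups, beside 0 and 0 in the reported setting. With each mouse left out they numbered 0 to 3 of 45 by Pearson's r. The causes were not tested. With 7 and 5 mice the members' 95% intervals reached 0.15 to 0.24 to either side on the log2 scale. Differences of −0.32 in Fads2 and 0.27 in Elovl7 did not pass the adjusted threshold. Depth did not fall below 209 counts for a member.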

Other observations

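Marker lists of the remaining cell types differed in direction. Microglia markers were lower in DPAn-6 in 9 of 9, with 3 past the adjusted threshold by edgeR and a median log2 fold change of −0.46. Meningeal fibroblast markers were lower in 7 of 7, with 3 past it and a median of −0.69. Endothelial markers were higher in 3 and lower in 4, with 0 past it and a median of −0.08. Oligodendrocyte precursor markers were higher in 1 and lower in 5, with a median of −0.07, and the 1 higher marker was past the adjusted threshold. Excitatory neuron markers were higher in 6 and lower in 2, with 0 past it and a median of 0.03.

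The gene most alike to Fads2 within groups, Ctxn1, had a treatment log2 fold change of −0.03 (adjusted p = 0.921 by edgeR), while Fads2 had −0.32. Mdn1, alike to Elovl7 within groups at r = 0.89, had −0.38 (adjusted p = 0.0143 by edgeR), opposite in sign to the 0.27 of Elovl7. The share of counts on Gm42418, a locus that overlaps ribosomal RNA, was 0.28% to 3.92% in CTRL, and 0.40% to 0.81% in DPAn-6. In CTRL it was lowest in replicate 3 and highest in replicate 2. Among CTRL mice, Elovl4 and Elovl6 were highest in replicate 3 and lowest in replicate 2. Whether the levels of members follow this share was not tested.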
